A study of Drosophila melanogaster with 9 samples.

Results

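The small-subunit ribosomal protein (RpS) mRNAs were examined as RNAs crosslinked to the Drosophila TRIM-NHL protein Mei-P26. Members were all genes whose symbol starts with RpS, together with sta (stubarista, the Drosophila RpSA) and Rack1. Mitochondrial mRpS genes were not members. Of 40 such genes in the symbol table, 36 had at least 1 cDNA, out of 6780 genes with a cDNA in all. RpS5b, RpS10a, RpS28a and RpS28-like had none. The membership rule used names alone and no measured value.

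The libraries come from individual-nucleotide crosslinking and immunoprecipitation (iCLIP2), in which UV light links a protein to RNA and each cDNA start marks the nucleotide next to the crosslink. Cultured Drosophila S2 cells, a line with traits of embryonic blood cells, were the source of all samples. They were transfected for 48 h with 15 µg plasmid DNA coding, under the Actin 5C promoter, for FLAG-tagged full-length Mei-P26 or for its FLAG-tagged NHL domain (residues 908 to 1206), or were left non-transfected as the control. Each group had 3 libraries, which the study's methods call biological replicates. All samples went through anti-FLAG immunoprecipitation and 10 U RNase I. Both baits were overexpressed in pools of transiently transfected cells, so they stand for neither germline nor endogenous levels. A treatment text shared by all samples names RNA-binding mutants as controls, whereas each control sample's own labels name non-transfected cells, and the latter were followed here. The files gave 14685, 1878 and 21831 cDNAs for full-length replicates 1, 2 and 3. The NHL domain libraries held 4321, 7947 and 40032 cDNAs, and the control libraries 1252, 1160 and 849.

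Ribosomal proteins of the small subunit bind its rRNA and shape the decoding centre, the mRNA channel and the surface on which initiation factors assemble. Their mRNAs are short, abundant and translated according to growth signals. Several Drosophila RpS genes also carry small nucleolar RNAs (snoRNAs) in their introns. These are cut out of the intron and guide modification of rRNA, the C/D type 2′-O-methylation and the H/ACA type pseudouridylation. Mei-P26 acts in germline differentiation, and its NHL domain binds single-stranded U-rich RNA.

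The U-rich elements below are shown because a U-rich RNA is the known ligand of the NHL domain. They are the study's own assignments of such elements to these genes, written as DNA as listed there, with letters that match TTTTAC or TTTTANA (read as printed only) in capitals. The study looked for them only close to crosslink positions from these same iCLIP experiments. Their presence and U-richness follow from that choice and are no separate evidence on these genes. Elements of members on the arms named below are given whether or not they hold a motif, and those of members on other arms are not shown.
RpS20 (3R): tTTTTACA
RpS7 (3R): ttTTTTACA
RpS3 (3R): TTTTACt
RpS4 (3L): TTTTACc
RpS4, further element (3L): ttttagc
RpS25 (3R): TTTTACc
RpS25, further element (3R): ttttgcc
RpS30 (3R): TTTTACt
RpS5a (X): tttttTTTTATAca
RpS13 (2L): TTTTATA
RpS19a (X): tTTTTAGA
RpS15Aa (X): ttttaat
RpS27A (2L): ttttgct
RpS28b (X): ttttgcg
sta (X): ttttcaa
sta, further element (X): tttgtc
The elements of RpS15Aa, RpS27A, RpS28b and sta and the further elements of RpS4 and RpS25 matched neither motif. The gene-matching parts of the forward primers for the RpS20 and sta reporters are shown because the first of them ends in TTTTAC.
RpS20 primer (3R): gatcggcagatgccacatTTTTAC
sta primer (X): aatcgtccgggccacagatg
No genome was used here, so the coordinates of these letters in the genome, their distance to the crosslinked nucleotides and the share of other sequences of the same length that hold them were not determined.

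Full-length replicate 2 stood apart before any result on RpS genes. Of its 26 cDNAs on mei-P26, which in transfected cells also come from the plasmid, 57.7% lay in the stretch that held the middle 95% of NHL domain cDNAs, against 19.0% and 20.3% in full-length replicates 1 and 3. It was also the shallowest bait library. Means that it changed by more than 1.5 times are therefore also given without it. The non-transfected control libraries had 3, 6 and 11 cDNAs on mei-P26. Of these, 100%, 83.3% and 90.9% lay in the same stretch, and their source was not tested. Of the markers of blood cells, 7 of 10 had cDNAs, together between 23.5 and 86.7 per 10000 cDNAs on genes in each library, while Hml, NimC1 and Sr-CI were at 0. Of 6 germline genes, aub had 2 cDNAs and the others none, and of 4 neuron genes elav, brp and Syt1 had 10 cDNAs together.

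RpS genes were well represented in all libraries, and the control lay between the baits. They took up 316, 687 and 406 of every 10000 cDNAs on genes in full-length replicates 1, 2 and 3. The NHL domain libraries gave 1031, 1063 and 847, and the control libraries 720, 791 and 789. Full-length Mei-P26 averaged 470 ± 194, the NHL domain 980 ± 116 and the control 767 ± 40.7 (SD, n = 3). Every full-length library was thus below every control library, and every NHL domain library above. Without full-length replicate 2 the full-length mean was 361. RNA abundance was not measured, and a library's cDNAs depend on how much each RNA is present as well as on how often it is crosslinked. These proportions are shares of a library and say nothing of the absolute yield.

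The excess in the NHL domain libraries lay at or beside snoRNAs. Positions that the files also assign to a snoRNA gene held 828 of the 5852 RpS cDNAs (14.1%), and positions within 50 nt of an annotated snoRNA another 794 (13.6%). The latter class was drawn without regard to strand. It also takes in any position inside an annotated snoRNA that the files do not assign to a snoRNA gene. The remaining 4230 cDNAs (72.3%) are called here the cDNAs on the rest of the gene. At snoRNA positions the mean was 45.7 ± 44.8 per 10000 cDNAs on genes with full-length Mei-P26, 170 ± 28.7 with the NHL domain and 69.3 ± 19.9 in control libraries (SD, n = 3). Full-length replicates 1, 2 and 3 gave 20.5, 97.4 and 19.2 there, and their mean without replicate 2 was 19.8. Within 50 nt of snoRNAs the means were 42.5 ± 67.4, 233 ± 113 and 89.6 ± 50.4. The full-length mean rested on replicate 2 there, since the libraries gave 3.66, 120.3 and 3.53, and without replicate 2 it was 3.60. On the rest of the gene the means were 382 ± 89.0, 577 ± 86.0 and 608 ± 72.5. The NHL domain libraries (487, 658 and 586) and the control libraries (581, 690 and 553) overlapped there, and the full-length libraries (292, 470 and 383) were lower than both groups. The mRNAs of the large subunit (RpL, 51 genes) had the same order of means on the rest of the gene, with 516 ± 105, 720 ± 121 and 735 ± 140. Unlike for RpS genes, the full-length libraries overlapped with both other groups there. Full-length replicate 2 gave 618.6, against 618.4 in NHL domain replicate 1 and 588.8 in control replicate 2. The ratio of RpS to RpL cDNAs ranged from 0.715 to 0.759 in the full-length libraries, from 0.771 to 0.853 in the NHL domain libraries and from 0.67 to 1.17 in the control.

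**Figure D1:**
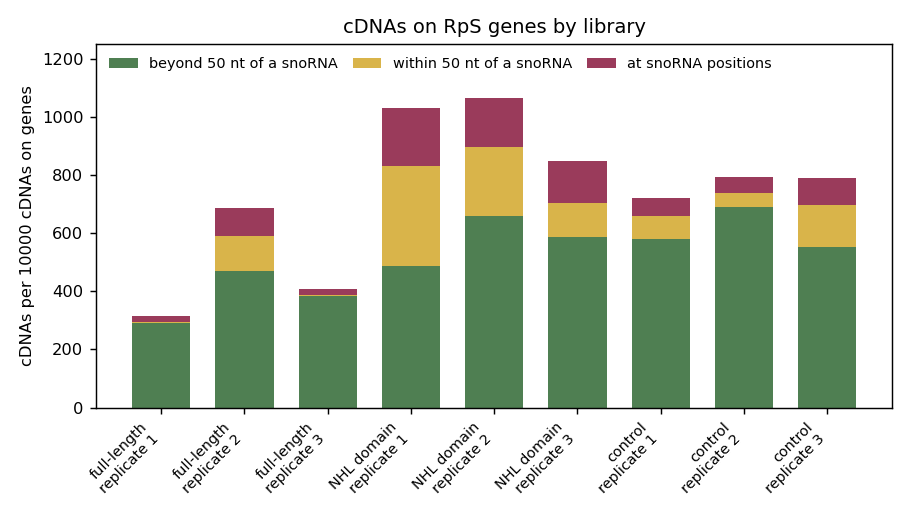
cDNAs on RpS genes per 10000 cDNAs on genes in each of the 9 libraries (stacked bars), split into cDNAs at snoRNA positions, within 50 nt of a snoRNA and on the rest of the gene. Added together, the parts at and beside snoRNAs are tallest in the 3 NHL domain libraries, while the rest of the gene reaches 487 to 658 there and 553 to 690 in the control.

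As a share of RpS cDNAs in each library, snoRNA positions took up 6.50% (exact 95% binomial interval 4.36 to 9.25%), 14.2% (8.47 to 21.7%) and 4.72% (3.36 to 6.42%) in full-length replicates 1, 2 and 3. They took up 19.5% (15.7 to 23.7%), 15.6% (13.1 to 18.3%) and 17.0% (15.7 to 18.4%) in the NHL domain libraries. In the control libraries they took up 8.43% (3.46 to 16.6%), 6.98% (2.60 to 14.6%) and 11.7% (4.82 to 22.6%). Every NHL domain library was above every other library, although full-length replicate 2 came close. The intervals cover counting error only.

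In all, 11 members hosted these positions, which belonged to 35 snoRNA genes. H/ACA snoRNAs held 631 of the 828 cDNAs and C/D snoRNAs 196. RpS20, a protein of the subunit's head, led with 329 cDNAs at snoRNA positions, nearly all at snoRNA:Psi28S-2562, an H/ACA snoRNA. This snoRNA gave 0, 6 and 5 cDNAs with full-length Mei-P26, 32, 43 and 235 with the NHL domain and 0, 1 and 6 in the control. RpS7 followed with 113 cDNAs over 6 snoRNAs, RpS16 with 97 over 5 and RpS9 with 77, all at snoRNA:Me28S-G3253. RpS5a had 51 over 9 snoRNAs, RpS4 48, RpS12 16 and sta 12. RpS3A, named after its count was seen, had 3. In the control, RpS16, RpS5a, RpS12 and sta had no cDNA at snoRNA positions, where NHL domain libraries held 89, 36, 14 and 12. The 3 control libraries together hold 3000 cDNAs on genes, so that a count of 0 allows up to 10 per 10000. The NHL domain libraries were deeper, with a mean of 15890 cDNAs on genes against 1000 in the control. These counts therefore cannot be compared directly.

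In RpS20 the crosslinks lay both at the snoRNA and near the 3′ end. On chromosome 3R, plus strand, the snoRNA and the 5 nt before it held 0, 6 and 5 cDNAs with full-length Mei-P26, 39, 50 and 254 with the NHL domain and 0, 1 and 6 in the control. The last 200 nt of the gene held 10, 3 and 13, then 8, 29 and 99, and then 1, 4 and 0. A site 81 to 112 nt before the gene end gave 148 of these 167 cDNAs, with 52 at the single nucleotide 89 nt from the end. With full-length Mei-P26, 57.8% of the RpS20 cDNAs lay in the last 200 nt, against 26.8% with the NHL domain and 35.7% in control libraries, the last from 14 cDNAs only. In full-length replicates 1, 2 and 3 this share was 76.9%, 27.3% and 61.9%, in the NHL domain libraries 15.7%, 34.1% and 26.7%, and without full-length replicate 2 the full-length share was 67.6%. Full-length replicate 2 thus lay within the range of the NHL domain libraries. All these shares count the cDNAs at the snoRNA as part of the gene. On the rest of the gene alone, the last 200 nt held 78.8% with full-length Mei-P26 and 84.5% with the NHL domain. The control had 71.4% there, from 7 cDNAs only. The higher full-length share was thus not seen once the cDNAs at and beside the snoRNA were left out.

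**Figure D2:**
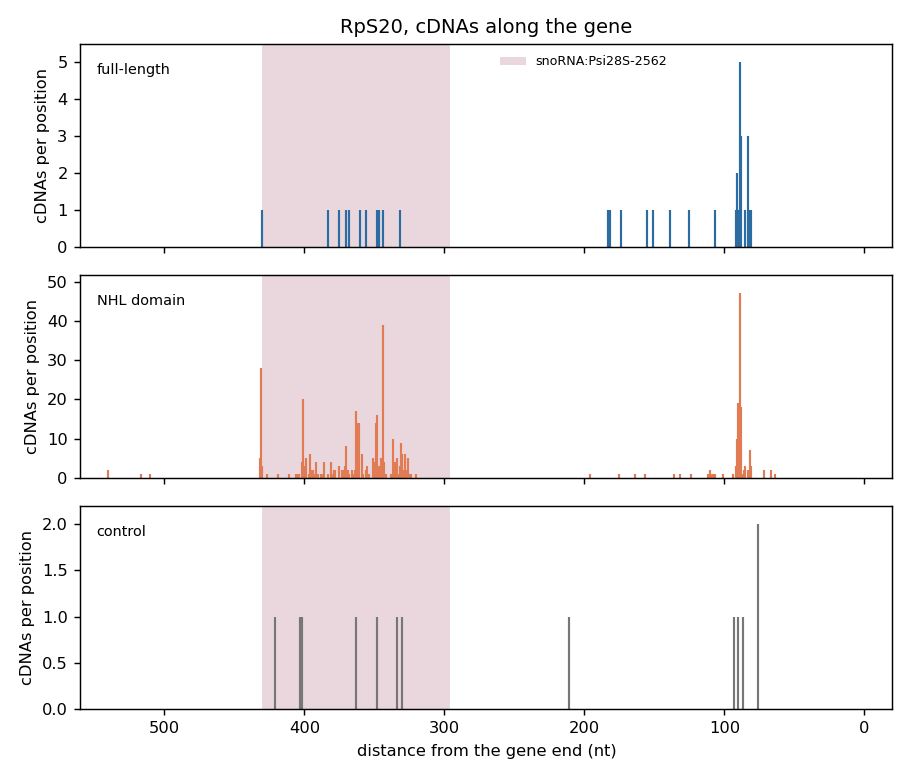
cDNAs per position, summed over the 3 libraries of each group, along the last part of RpS20, with the gene end at the right and the annotated snoRNA shaded. Vertical axes differ between panels. The peaks stand in the snoRNA and near 89 nt from the gene end.

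On the rest of the gene, members of the subunit's head and of its body did not stand apart. The 16 head genes held 2025 cDNAs (median 104.5 a gene) and the 20 body genes 2205 (median 99). Head genes took up 170 ± 46.6 per 10000 cDNAs on genes with full-length Mei-P26, 295 ± 55.0 with the NHL domain and 261 ± 84.2 in control libraries (SD, n = 3). Body genes took up 212 ± 42.7, 282 ± 32.9 and 347 ± 48.5. The NHL domain was above the control in the head genes and below it in the body genes, and in both lists these libraries overlapped. These counts are not divided by length, so levels of different genes cannot be compared from them.

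Among the head genes, RpS25 had 14, 3 and 43 cDNAs with full-length Mei-P26, 11, 37 and 126 with the NHL domain and 4, 7 and 4 in the control. RpS25 is known from yeast and human cells for its part in internal initiation. Per 10000 cDNAs on genes it gave 16.4 ± 5.76, 38.0 ± 11.8 and 50.6 ± 15.0, and every full-length library was below every other library. RpS28b, which lies near the mRNA exit, had 12, 5 and 25, then 12, 40 and 106, and then 5, 6 and 2 cDNAs, or 16.7 ± 10.5, 38.4 ± 14.6 and 41.6 ± 14.5 per 10000. Without full-length replicate 2 its full-length mean was 10.7. RpS29, a small zinc-binding protein, gave 10.7 ± 0.973, 23.7 ± 7.66 and 26.5 ± 8.15 per 10000 on the rest of the gene. In RpS29 the full-length libraries were again below all others. RpS16, whose tail reaches the tRNA in the decoding centre, gave 12.9 ± 2.34, 23.6 ± 4.17 and 16.5 ± 9.89. RpS15, another head protein near the tRNA, gave 12.5 ± 4.27, 23.7 ± 6.22 and 8.85 ± 8.68. RpS5a gave 9.50 ± 5.85, 20.0 ± 10.7 and 12.1 ± 14.1. For RpS15 every NHL domain library was above every other library, whereas RpS5a overlapped in all groups.

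Among the body genes, RpS23, which sits in the decoding centre, was highest in the control. It had 39, 9 and 55 cDNAs with full-length Mei-P26, 11, 34 and 161 with the NHL domain and 10, 11 and 4 in the control. These were 36.0 ± 13.5, 39.8 ± 10.0 and 80.2 ± 24.9 per 10000 cDNAs on genes (SD, n = 3), and every control library was above every bait library. RpS4 gave 15.2 ± 6.89, 23.8 ± 6.20 and 25.5 ± 17.9, and RpS7 10.8 ± 4.45, 19.9 ± 5.13 and 27.0 ± 18.7. Both overlapped between the NHL domain and the control.

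Rack1, a scaffold protein on the subunit's head, and sta had few cDNAs in the control. Rack1 had 12, 3 and 16 cDNAs with full-length Mei-P26, 4, 9 and 39 with the NHL domain and 0, 1 and 0 in the control. It gave 11.3 ± 5.06, 11.1 ± 1.13 and 3.07 ± 5.31 per 10000, and the control's highest library (9.20) overlapped with the full-length libraries, whose lowest was 8.07. sta had 18, 1 and 32 cDNAs, then 3, 14 and 54, and then 2, 1 and 0. On the rest of the gene it gave 11.7 ± 5.37, 11.2 ± 5.73 and 8.85 ± 8.68, which overlapped in all groups.

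For the duplicated genes nearly all cDNAs were assigned to a single copy. RpS14a had 51 cDNAs and RpS14b 9, RpS15Aa 87 and RpS15Ab 6, and RpS19a 104 and RpS19b 3. RpS5a, RpS10b and RpS28b had 216, 72 and 213, and their copies RpS5b, RpS10a and RpS28a none. How reads that match both copies were treated is not stated in the sources used here, so counts of near-identical copies are uncertain. Of the 86 cDNAs of RpS6, named for this overlap, 84 lay at positions that the files also list for the gene CR33222.

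**Figure D3:**
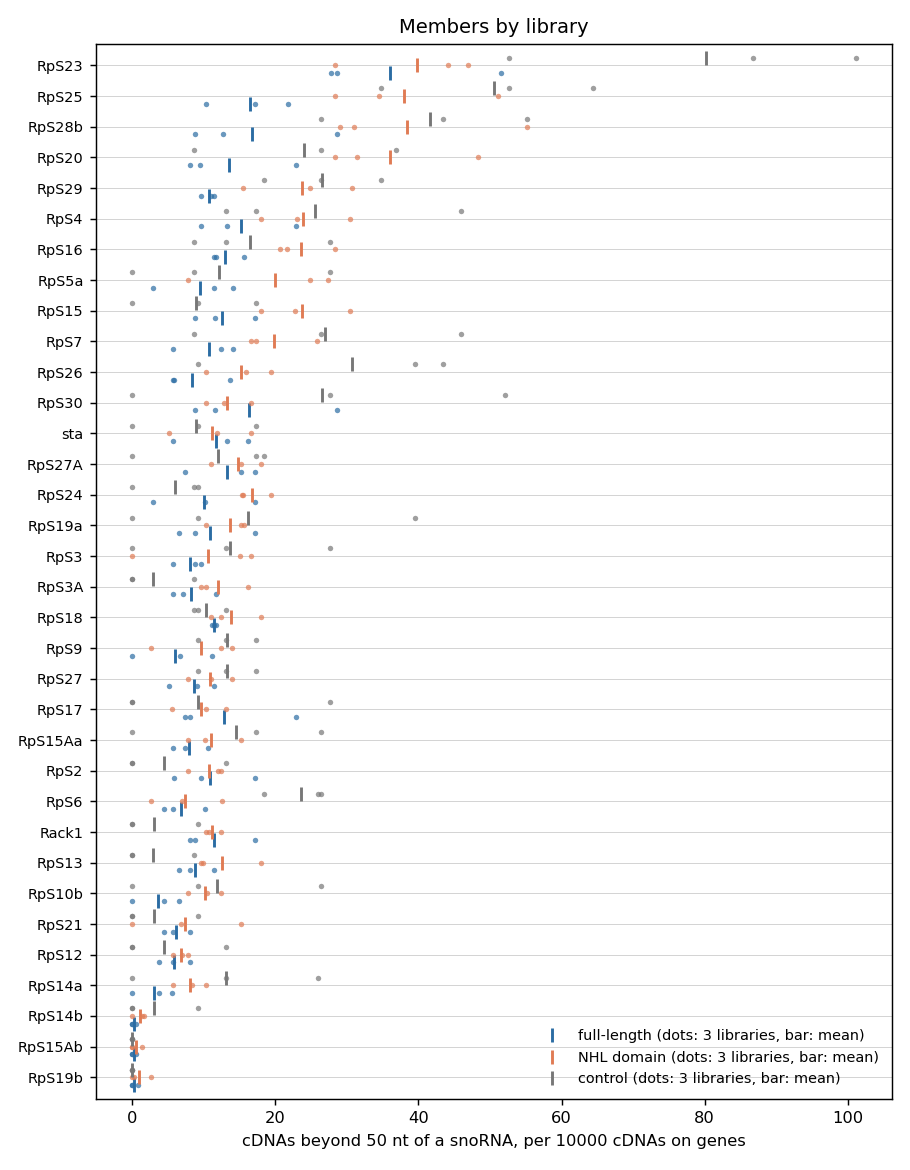
cDNAs on the rest of the gene per 10000 cDNAs on genes for 34 of the 36 members with a cDNA, with 1 dot for each of 3 libraries and a bar for the mean of each group. RpS23 reaches 80.2 in the control against 36.0 and 39.8 in the bait groups, and RpS25 16.4 with full-length Mei-P26 against 38.0 and 50.6 in the others.

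Seen across the members, full-length Mei-P26 gave lower shares of the library total than the NHL domain. Of the 33 members with at least 20 cDNAs on the rest of the gene, 28 had a lower mean rate with full-length Mei-P26, where 40.1% of all 780 such genes had. In 9 members (RpS7, RpS10b, RpS14a, RpS15, RpS16, RpS20, RpS25, RpS28b and RpS29) all full-length libraries were below all NHL domain libraries, against 7.44% of all such genes, and in 0 members all were above, against 10.8%. Without full-length replicate 2 the counts were 32 lower in the mean (34.7% of all such genes), 15 lower with no overlap (12.6%) and 0 higher (26.3%). Against the control, full-length Mei-P26 was lower in the mean in 20 members (44.6% of all such genes). It was lower with no overlap in 5 (3.33%), among them RpS6, RpS23, RpS25 and RpS29, and higher with no overlap in 0 (11.5%). Without full-length replicate 2 these counts were 22 (43.3%), 7 (4.62%) and 0 (28.5%). The NHL domain was lower in the mean than the control in 17 members (49.7%). It was lower with no overlap in 3 (3.21%), RpS6 and RpS23 among them, and higher in 6 (15.8%), Rack1, RpS3A, RpS13, RpS15 and RpS24 among them. Genes outside the naming rule were chosen here after their values were seen. All rates share the library total as denominator and are therefore not independent, and the comparisons with the control share its 3 shallow libraries.

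The test over whole genes asked which RNAs differed between groups once all RNAs were considered together. The quasi-likelihood test of edgeR, with p-values adjusted after Benjamini and Hochberg, covered 73 genes that passed the filter on low counts. The least abundant of these had 91 cDNAs in all libraries together. Among them were 13 members, such as RpS4, RpS5a, RpS7, RpS9, RpS16, RpS20, RpS23, RpS25, RpS28b, RpS29 and RpS30. The other 23 members with a cDNA were not tested. Its p-values rest on 3 samples a group.

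Neither bait separated any tested member from the control. With full-length Mei-P26, edgeR called 0 of 13 members, where it called 6.85% of all tested genes (4.11% higher and 2.74% lower). At an unadjusted p below 0.05 there were 0 members, against 16.4% of all tested genes (11.0% higher and 5.48% lower). The median log2 fold change of the 13 was -0.41, against 0.07 over all tested genes, and 10 of 13 were below 0, where 42.5% of all tested genes were. The NHL domain also gave 0 called members, beside 0.0% of all tested genes. At an unadjusted p below 0.05 there were 2 members, both higher, against 16.4% of all tested genes (15.1% higher and 1.37% lower). RpS20 was 1.21 higher on the log2 scale (standard error 0.60, edgeR adjusted p = 0.279). In RpS20 and in RpS16, also higher, the scaled values of the groups did not overlap. Further members not reported here by name did not overlap either, a higher and a lower one among them. Of all tested genes, 27.4% did not overlap. For RpS23 the difference was -1.08 (standard error 0.55, edgeR adjusted p = 0.279). The median of the 13 was -0.13, against 0.22 over all tested genes, and 8 of 13 were below 0 (41.1% of all tested genes). DESeq2 called 0 members in both comparisons. Without full-length replicate 2, which also sets the filter and the shared spread, edgeR called 2 members higher with the NHL domain than in the control, RpS20 among them (1.74, edgeR adjusted p = 0.0363). Without control replicate 3 it also called 2, again with RpS20 (2.49, edgeR adjusted p = 0.0447).

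Between the baits, RpS20 was lower with full-length Mei-P26. Scaled to CPM over the tested genes, RpS20 had 5230, 20315 and 5713 in full-length replicates 1, 2 and 3, against 31538, 29579 and 28451 in the NHL domain libraries. These groups did not overlap, and replicate 2 was the full-length library nearest to the NHL domain. The difference was -1.83 on the log2 scale (standard error 0.54, edgeR adjusted p = 0.00487). edgeR called 2 of 13 members, both lower, where it called 38.4% of all tested genes, 15.1% higher and 23.3% lower. The same 2 were the members with an unadjusted p below 0.05, against 47.9% of all tested genes (20.5% higher and 27.4% lower). Groups did not overlap in RpS20, RpS23 and RpS30, the last 2 being higher with full-length Mei-P26 and not called, where 39.7% of all tested genes did not overlap. The median of the 13 was -0.27, against -0.14 over all tested genes, and 10 of 13 were below 0 (57.5% of all tested genes). Without full-length replicate 2 the value for RpS20 was -2.94, and it was called. Without full-length replicate 1 or 3 edgeR called 0 members, with RpS20 at -1.26 and -1.12 (edgeR adjusted p = 0.125 and 0.198), and without NHL domain replicate 2 it called RpS20 only.

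The call of RpS20 was lost without its snoRNA positions. With snoRNA positions left out of the host genes, RpS20 gave -1.19 (edgeR adjusted p = 0.0775) and was no longer called. With the 50 nt around snoRNAs left out too, RpS20 gave -0.81 (edgeR adjusted p = 0.257), and edgeR called 0 of the 8 members tested, with 0 at an unadjusted p below 0.05. That fit covered 50 genes. Between the baits, 4 of its 8 members were below 0, with a median of 0.03 against 0.08 over all its genes. The lower shares of the members with full-length Mei-P26 were thus not seen in this scaled fit. Without the filter on low counts, edgeR called 2 of 36 members higher with the NHL domain than in the control, where it called 0.221% of all 6780 genes higher. RpS20 was among them, at 2.76 (standard error 0.64, edgeR adjusted p = 0.00926), beside a median of 1.51 over all genes in that fit. Other members named from this fit were not called. Rack1 was 2.77 higher with full-length Mei-P26 than in the control (standard error 1.38, edgeR adjusted p = 0.777), where the median over all genes was 1.62. RpS16, RpS15 and RpS5a were 2.99, 2.84 and 2.57 higher with the NHL domain (edgeR adjusted p = 0.114, 0.725 and 0.639).

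The position within the gene addressed whether crosslinks gathered near the 3′ end. Of the RpS cDNAs outside snoRNA positions, 32.5%, 20.4% and 39.4% lay in the last 200 nt of the gene with full-length Mei-P26, 19.6%, 18.3% and 26.5% with the NHL domain and 21.1%, 23.8% and 11.3% in the control. The means were 30.8 ± 9.61%, 21.5 ± 4.43% and 18.7 ± 6.54% (SD, n = 3), with overlap between the groups. When the positions within 50 nt of snoRNAs were left out too, they were 32.8 ± 7.06%, 30.1 ± 4.48% and 21.2 ± 6.00%. RpL genes gave 43.1 ± 3.52%, 35.1 ± 5.26% and 32.6 ± 4.43% in the same way. Between 50 and 100 nt from the gene end all groups had their highest bin of the last 1000 nt, with 12.4 ± 1.75% of the cDNAs on the rest of the gene in the full-length libraries and 13.8 ± 0.617% in those of the NHL domain. The control had 8.02 ± 4.64% there, from 4, 10 and 2 cDNAs. The last 50 nt held 8.39 ± 4.01%, 4.55 ± 1.39% and 7.20 ± 3.22%.

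**Figure D4:**
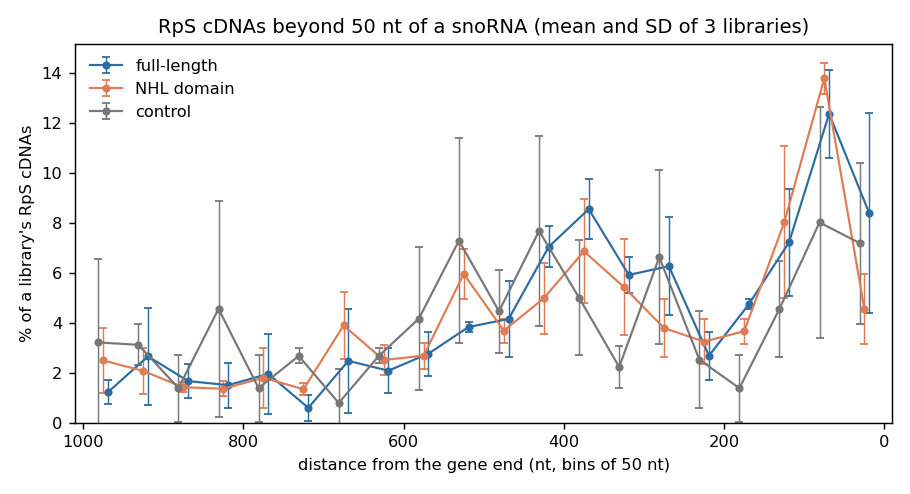
Share of each library's RpS cDNAs on the rest of the gene in bins of 50 nt from the gene end (points: mean of 3 libraries, bars: SD). Both baits peak 50 to 100 nt from the end, at 12.4 and 13.8%, and the error bars of the control are wide.

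The members differed greatly in this respect. RpS16, RpS20 and RpS15 had 79.0%, 84.5% and 68.8% of their NHL domain cDNAs on the rest of the gene within the last 200 nt. RpS4, RpS19a and RpS28b had none there with either bait, nor had RpS3, RpS3A, RpS10b, RpS13 and RpS26, named after their values were seen. The end used is that of the annotated gene and thus of its longest transcript, so mRNAs that end earlier appear far from it. Among the 33 members with at least 10 such cDNAs of each bait, the share was higher with full-length Mei-P26 in 17 and lower in 8, with a median difference of 0.35 percentage points. sta had 74.5% with full-length Mei-P26 and 54.4% with the NHL domain.

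The authors' clusters marked sites of locally enriched crosslinks in most members. With full-length Mei-P26, 11, 3 and 24 members had a cluster in replicates 1, 2 and 3, and 26 of 36 in any of them. With the NHL domain these were 8, 18 and 30, and 31 in all, and in the control 1, 3 and 2, and 4 in all. Over all genes with a cDNA, 11.4%, 10.6% and 1.05% had a cluster. Since clusters need cDNAs, the comparison is closer for genes with at least 20 cDNAs, of which 42.9%, 48.3% and 4.86% had a cluster, against 26, 31 and 4 of the 33 members with as many. Those genes were still not matched to the members in their number of cDNAs, of which RpS14a, the lowest of the 33 members, had 51. Clusters of both baits were found in 24 members, all among these 33, where 27.3% of the genes with at least 20 cDNAs had them. For both baits the number of members with a cluster rose with the depth of the library, and its part in these counts was not tested. In at least 2 replicates of a group a cluster was found in 11, 19 and 1 members. Control clusters lay in RpS23, RpS25 and, named after its value was seen, RpS27A, among others.

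Joining bait clusters that lay within 10 nt of each other gave 90 sites, of which 13 touched snoRNA positions. The other 77 lay in 32 members, 22 of them within 200 nt of the gene end. In 25 of the 77 both baits had a cluster, 42 had clusters of the NHL domain only and 10 of the full-length protein only. At 35 of the 77 sites the control had at least 1 cDNA. The site of RpS23 held 25, 3 and 30 cDNAs with full-length Mei-P26, 7, 16 and 112 with the NHL domain and 3, 10 and 2 in the control, and lay 282 to 372 nt from the gene end. The site of RpS16, 34 to 58 nt from the end, held 5, 1 and 19, then 5, 8 and 51, and then 1, 1 and 0. The site of RpS15, 117 to 150 nt from the end, held 3, 0 and 10, then 4, 9 and 49, and then 1, 0 and 0. The site of sta, 28 to 46 nt from the end, held 7, 0 and 18, then 0, 1 and 16, and then 1, 0 and 0. Full-length replicate 2 had at most 3 cDNAs at each of these 4 sites.

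The coordinates of 4 such sites, on the annotation's Release 6 assembly, show where they lie in genes named here. That of RpS20 was chr3R:20823244-20823275 on the plus strand, with 7, 2 and 10 cDNAs with full-length Mei-P26, 8, 24 and 92 with the NHL domain and 1, 4 and 0 in the control. That of RpS4 was chr3L:13043848-13043880 on the plus strand, with 9, 3 and 14, then 3, 12 and 55, and then 1, 3 and 0. RpS7 had chr3R:30206569-30206592 on the minus strand, with 8, 0 and 10, then 5, 3 and 26, and then 0, 1 and 0. RpS5a had chrX:17143625-17143673 on the minus strand, with 1, 0 and 12, then 1, 6 and 45, and then 1, 1 and 0. All 4 had clusters of both baits, and the control had at most 4 cDNAs in sum at each site except RpS20, where it had 5.

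The places of the authors' peaks were compared by the nearest pair of peaks of both baits in each gene. Of the 24 members with peaks of both baits outside snoRNA positions, 23 had a pair of peaks less than 50 nt apart, 21 within 20 nt and 20 on the same nucleotide. Of all 255 genes with peaks of both baits outside snoRNA positions, 75.3%, 70.2% and 54.5% had such a pair. These genes were not matched to the members for length or number of peaks, on which the nearest distance depends. The exceptions to the 50 nt limit and to the 20 nt limit were RpS15Aa (85 nt), RpS26 (40 nt) and RpS10b (26 nt), the last 2 named after their distances were seen. Without full-length replicate 3 the count was 11 of 11 members, and without NHL domain replicate 3 it was 10 of 16, where 70.1% and 52.9% of all such genes had a pair less than 50 nt apart. The control had a cluster in 4 members only, and whether these places differ from those of crosslinks without a bait was not tested.

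Other genes of the translation machinery were compared in the same fit. Of the RpL genes 12 of 51 were tested. edgeR called 0 of them against the control for either bait. Between the baits RpLP1 was higher and RpL41 lower with full-length Mei-P26. The median log2 fold change of the tested RpL genes between the baits was 0.42, against -0.27 for the RpS genes. Both medians come from the fit that kept snoRNA positions. Without these and the 50 nt around them the RpS median was 0.03, and no RpL median was taken in that fit. As mean shares of the library on the rest of the gene, both sets were lower with full-length Mei-P26 than with the NHL domain. Of 41 translation factor genes (eIF, eEF and eRF) 2 were tested and 0 called in any comparison. Of the 22 mitochondrial mRpS genes, with 53 cDNAs in all, and of 7 assembly factors, with 131, none was tested.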

How the data were processed

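Crosslinked positions came from 9 iCLIP2 libraries. The authors aligned reads with STAR 2.7.3a (submitters' processing notes), removed PCR duplicates and used iCount (version not given in the sources used here). The deposited score tables hold counts of distinct cDNAs per position and gene, with an FDR (adjusted p-value) that the authors derived for each position; the deposited clusters and peaks were called per library. Columns were not normalised.

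Counts were summed per gene and library. Positions also listed for a snoRNA gene were told apart. So were the remaining positions inside or within 50 nt of a snoRNA, on either strand, in the RefSeq table (Release 6), which also gave gene ends. Rates are per 10000 cDNAs on genes. Sums were tested with edgeR 4.0.16 (filterByExpr, TMM, all 3 groups in 1 fit, adjusted p below 0.05) and with DESeq2 1.42.0 as an alternative, in R 4.3.3. The scripts were tested on simulated data. Site counts include 5 nt on each side. Intervals are exact binomial ones (95%).

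Named were the 12 members with most cDNAs outside snoRNA positions, those passing the filter, RpS20, RpS23, sta, Rack1, members with at least 5 cDNAs at snoRNA positions, duplicated pairs as counts, and up to 3 further members per comparison with the smallest unadjusted p below 0.05 without the filter. The members and lists were chosen with earlier results of these data known. Some members enter the sums and counts but are not reported here by name.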

Additional observations from a re-analysis of the deposited data

How the results depend on the processing

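Alternatives with snoRNA surroundings or by the last 20% of the crosslinked stretch were chosen after seeing the data. No pairing by replicate number was seen (9 correlations of deviations from -0.385 to 0.293), though so few libraries cannot exclude it. With the number as a replicate block, edgeR called as many members as without it. These were 0 for full-length Mei-P26 against control, 0 for NHL domain against control and 2 for full-length Mei-P26 against NHL domain. Without the filter on low counts 2 members were called for the NHL domain against control. Between the baits 4 were called without TMM, 1 without snoRNA positions and 0 without these and 50 nt around them. Leaving out each library gave 0, 0 to 2 and 0 to 2 calls.

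Directions that turned were of differences that were not called. RpS23 gave 0.62 without the filter for the NHL domain against control, and -0.63 without the filter and -0.17 without TMM between the baits. RpS20 for full-length Mei-P26 against control gave -1.20 to 0.17 leaving out each library. The causes were not tested.

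RpS cDNAs per 10000 in the NHL domain and control libraries were 810 and 697 without snoRNA positions, 577 and 608 without the 50 nt around too, and 1131 and 889 over coding genes only. With positions counted once the NHL domain gave 745. In the 3′ end, a window of 100 nt held 19.5% (full-length) and 13.3% (NHL domain), 300 nt held 26.6% (NHL domain) and 26.7% (control), and the last 20% of the stretch held 50.7%, 34.2% and 33.1%. The NHL domain gave 30.05% in 200 nt without the 50 nt around snoRNAs. Clusters in at least 2 replicates were found in 11, 19 and 1 members. Clusters in any remaining replicate were found in 13 to 26, 20 to 31 and 2 to 4 members leaving out each library. Peaks of both baits lay less than 50 nt apart in 10 to 23 members. The control libraries, with at most 1153 cDNAs on genes, limit every comparison with them.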
